A study of Homo sapiens with 11 samples.

Results

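The 10 genes described here belong to the unfolded protein response of the endoplasmic reticulum (ER): the chaperones HSPA5, HSP90B1, CALR, DNAJB9 and SDF2L1, the disulfide isomerases PDIA4 and PDIA6, the transcription factor XBP1, the degradation factor HERPUD1 and the secreted protein MANF. They were chosen by name, and all 10 were found among the 57773 genes of the expression table, which has 9 RNA-Seq libraries, and in the tables of splicing events. RNA was sequenced from HCC78, a lung adenocarcinoma (LUAD) line that itself carries U2AF1 S34F, a mutation of a splicing factor that recognises the 3′ splice site, and an SLC34A2-ROS1 fusion. The study asked how S34F changes RNA binding, splicing and expression. For this, stable subclones of HCC78 were made that carry a tetracycline-inducible lentiviral construct for wild-type (WT) or S34F U2AF1 with FLAG and HA tags at the N-terminus. Since the background of every group carries S34F, each library is labelled with the share of its U2AF1 mRNA that is S34F: 62% and 65% in the 2 libraries of the S34F line treated with doxycycline (S34F dox+), and 12% and 14% in the 2 WT dox+ libraries. The share was 33% in each of the 2 WT dox- libraries, 28% in the 1 S34F dox- library (labelled replicate 2) and 32% in each of the 2 libraries of the untransduced parental line. The parental libraries are labelled as untreated, but a supplementary table of the study heads them as treated with doxycycline.

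Proteins that enter the ER are folded there by chaperones and by enzymes that form disulfide bonds. When unfolded proteins build up, the sensors IRE1 (gene ERN1), PERK (gene EIF2AK3) and ATF6 start the unfolded protein response: IRE1 removes a short intron from XBP1 mRNA outside the nucleus, ATF6 is cut by the proteases of sites 1 and 2 to release a transcription factor, and PERK slows translation and favours ATF4. Spliced XBP1 and ATF6 then raise transcription of chaperones and of degradation factors, and cells that secrete much protein keep many of these genes at a high level at rest.

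Induction was visible in U2AF1 itself. WT dox+ libraries had 278 and 299 FPKM (fragments scaled to transcript length and library size) and S34F dox+ libraries 164 and 223 FPKM, against 103 to 115 FPKM in the 5 libraries without induction. Epithelial genes were abundant in every library, with EPCAM between 407 and 545 FPKM. The summed level of the 9 epithelial and LUAD markers ranged from 4977 to 7315 FPKM, that of 5 fibroblast markers from 3.51 to 13.0, that of 4 leukocyte markers from 14.9 to 36.4, most of it CD68, and that of 2 endothelial markers from 0.040 to 1.86. The lung marker SFTPB was at 0.25 to 2.05 FPKM. The expression table gives no read counts, so the read total of each library is unknown. Low FPKM values, whose steps are those of single reads, gave a rough estimate of depth relative to parental replicate 1. It was 0.603 to 1.28 times in 7 libraries and 2.48 times in the S34F dox- library. S34F dox+ replicate 2 stood apart, with 20896 genes at 1 FPKM or more against 13661 to 17716 in the other libraries and with the lowest of these depths. In bulk RNA, fewer cells of a type and less RNA per cell cannot be told apart.

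The promoters of 7 of the 10 genes hold the DNA sites that these transcription factors are known to bind, and they are shown because the sites link the genes apart from their expression. The ER stress response element (ERSE) was searched as CCAAT and CCACG with 9 bases N between them, and ERSE-II as ATTGG and CCACG with 1 base N between them, on both strands, in RefSeq promoter windows of GRCh38.p14 that run from 250 bases before to 50 bases after a gene's start. All 10 genes matched by symbol, with 13 windows among them. An exact ERSE was found in 27 of 35116 windows (0.0769%) and in 5 of the 10 genes, and an exact ERSE-II in 19 windows (0.0541%) and in 2 of the 10. The core of the unfolded protein response element, TGACGTGG, was in 256 windows (0.729%) and in none of the 10 genes, and the windows of DNAJB9, PDIA4 and MANF held no exact match of any of the 3 motifs. Each sequence reads 5′ to 3′ on the strand of the gene, with the fixed letters of the site in capitals. Where the site lies on the opposite strand, it appears as its reverse complement.
HSPA5, chr9:125241371-125241429, minus strand: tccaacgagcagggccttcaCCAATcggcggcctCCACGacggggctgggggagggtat
XBP1, chr22:28800583-28800641, minus strand: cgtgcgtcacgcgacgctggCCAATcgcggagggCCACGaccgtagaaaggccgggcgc
PDIA6, chr2:10812833-10812891, minus strand: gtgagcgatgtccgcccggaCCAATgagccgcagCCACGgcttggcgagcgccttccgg
CALR, chr19:12938364-12938422, plus strand: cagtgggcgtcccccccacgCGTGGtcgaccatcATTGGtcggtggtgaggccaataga
HSP90B1, chr12:103930196-103930359, plus strand: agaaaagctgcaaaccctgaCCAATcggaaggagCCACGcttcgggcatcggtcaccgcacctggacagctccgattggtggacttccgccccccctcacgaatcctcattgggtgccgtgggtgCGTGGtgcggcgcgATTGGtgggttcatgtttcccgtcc
HERPUD1, chr16:56932005-56932055, plus strand: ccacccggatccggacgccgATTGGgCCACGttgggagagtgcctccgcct
SDF2L1, chr22:21642094-21642144, plus strand: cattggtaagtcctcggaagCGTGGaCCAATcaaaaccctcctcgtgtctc

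HSP90B1 was the gene with 2 exact ERSE matches, in opposite orientations. Measured from the annotated start, the site nearest to it was that of XBP1, from -52 to -34, and the farthest that of CALR, from -225 to -207. XBP1 encodes a factor that acts through such sites, and its own promoter holds one as well. A match describes the letters of a window and shows no binding.

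HSPA5 (BiP, the Hsp70 chaperone of the ER lumen, which also holds the 3 sensors inactive; ENSG00000044574.7) stood at 186 and 164 FPKM in the parental replicates, 185 and 209.8 in WT dox-, 203 in S34F dox-, 158 and 163 under WT dox+ and 186 and 149 under S34F dox+. The libraries of the transduced lines without doxycycline were high, and S34F dox+ replicate 1 was the dox+ library that reached into their range. HSP90B1 (GRP94, the Hsp90 of the ER; ENSG00000166598.8) was at 759 and 943 FPKM in the parental replicates, 674 and 783 in WT dox-, 729 in S34F dox-, 823 and 836 under WT dox+ and 821 and 735 under S34F dox+. Its WT dox+ libraries were above its WT dox- libraries, unlike those of HSPA5. CALR (calreticulin, which binds sugar chains of unfinished glycoproteins; ENSG00000179218.9) was at 962 and 865 FPKM in the parental replicates, 818 and 963 in WT dox-, 947 in S34F dox-, 749 and 746 under WT dox+ and 854 and 782 under S34F dox+. The WT dox+ libraries were the lowest of the 9.

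DNAJB9 (ERdj4, an Hsp40 cochaperone of HSPA5; ENSG00000128590.4) was the least expressed of the 10, at 9.40 and 7.60 FPKM in the parental replicates, 4.90 and 5.36 in WT dox-, 5.03 in S34F dox-, 8.69 and 5.68 under WT dox+ and 7.56 and 5.36 under S34F dox+. Parental replicate 1 was the highest, and the dox+ libraries were at or above the 3 dox- libraries of the transduced lines, with S34F dox+ replicate 2 level with WT dox- replicate 2. SDF2L1 (an ER protein that works with HSPA5 and its cochaperones; ENSG00000128228.4) was at 18.6 and 16.4 FPKM in the parental replicates, 21.3 and 22.5 in WT dox-, 30.1 in S34F dox-, 13.3 and 14.8 under WT dox+ and 15.8 and 21.9 under S34F dox+. The S34F dox- library was the highest and the WT dox+ libraries the lowest, and S34F dox+ replicate 2 lay between the WT dox- replicates.

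PDIA4 (ERp72, a protein disulfide isomerase; ENSG00000155660.6) was at 170.4 and 179 FPKM in the parental replicates, 143 and 171 in WT dox-, 175 in S34F dox-, 137 and 142 under WT dox+ and 157 and 139 under S34F dox+. The parental replicates and the S34F dox- library were high, and the dox+ libraries overlapped with WT dox- replicate 1. PDIA6 (a disulfide isomerase that also acts on IRE1; ENSG00000143870.8) was at 223 and 227 FPKM in the parental replicates, 196 and 237 in WT dox-, 224 in S34F dox-, 196 and 189 under WT dox+ and 185 and 173 under S34F dox+. In PDIA6 the dox+ and dox- libraries were separated but for WT dox+ replicate 1, which was level with WT dox- replicate 1.

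XBP1 (ENSG00000100219.12) was at 91.7 and 129 FPKM in the parental replicates, 103 and 118 in WT dox-, 108 in S34F dox-, 90.2 and 90.5 under WT dox+ and 89.4 and 97.4 under S34F dox+. All 4 dox+ libraries were below all 3 dox- libraries of the transduced lines, and the parental replicates spanned both. HERPUD1 (an ER membrane protein of the ubiquitin ligase complex that clears misfolded proteins; ENSG00000051108.10) was at 67.9 and 86.2 FPKM in the parental replicates, 67.4 and 83.5 in WT dox-, 80.2 in S34F dox-, 74.1 and 66.7 under WT dox+ and 83.2 and 84.7 under S34F dox+. Both S34F dox+ libraries were above both WT dox+ libraries. MANF (a secreted protein that is kept in the ER with HSPA5; ENSG00000145050.11) was at 59.8 and 54.0 FPKM in the parental replicates, 53.0 and 78.3 in WT dox-, 64.9 in S34F dox-, 44.0 and 57.4 under WT dox+ and 58.0 and 45.8 under S34F dox+. Its dox+ and dox- libraries overlapped, and WT dox- replicate 2 was the highest.

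**Figure D1:**
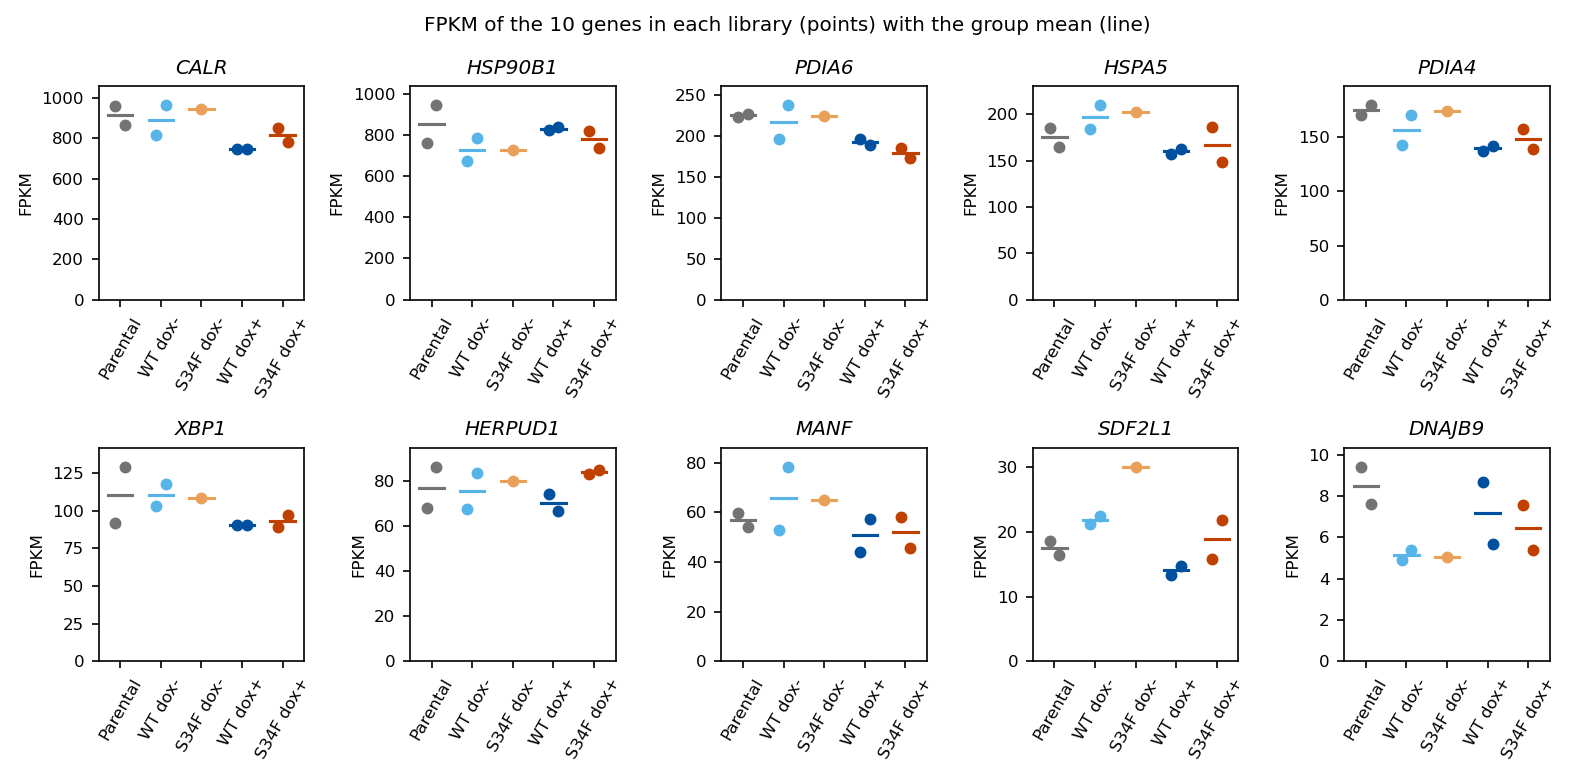
FPKM of each of the 10 genes (y axis, from 0) in the 5 groups (x axis), with 1 point per library and a line at the group mean, which for S34F dox- is its 1 library. The highest library was between 1.29 times (CALR) and 2.26 times (SDF2L1) the lowest, and in XBP1 the dox+ points lie below the dox- points of the transduced lines.

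In FPKM, a scale per transcript length, the mean level over the 9 libraries fell in the order CALR (854), HSP90B1 (789), PDIA6 (206), HSPA5 (178), PDIA4 (157), XBP1 (102), HERPUD1 (77.1), MANF (57.2), SDF2L1 (19.4) and DNAJB9 (6.62). The ranges over libraries of CALR and HSP90B1, of PDIA6 and HSPA5, of HSPA5 and PDIA4, and of HERPUD1 and MANF overlapped, whereas those of HSP90B1 and PDIA6, PDIA4 and XBP1, XBP1 and HERPUD1, MANF and SDF2L1, and SDF2L1 and DNAJB9 did not. CALR was above 99.0% of the 15179 genes tested and DNAJB9 above 39.7%. The coefficient of variation over all 9 libraries was between 9.88% (HSP90B1) and 13.8% (XBP1) for 7 of the genes, 18.0% for MANF, 25.8% for DNAJB9 and 26.7% for SDF2L1.

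The main comparison of the study set S34F dox+ against WT dox+. None of the 10 genes passed the test. The median log2 fold change was 0.05, beside 0.03 for all genes tested, with 7 estimates above and 3 below 0. Of all genes tested, 44.6% were below 0. Log2(FPKM + 1) was fitted with limma-trend over the 5 groups, with adjustment by Benjamini-Hochberg over the 15179 genes, and of these 8 (0.0527%) were called at an adjusted p under 0.05. At an unadjusted p under 0.05 the count among the 10 was also 0. The labels do not say that replicates were separate cultures, so p-values measure only the spread between these libraries, which may be technical.

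SDF2L1 was 1.31-fold higher in S34F dox+ with a 95% interval from 0.992 to 1.72 (adjusted p = 0.739). On the log2 scale this is 0.39, which became 0.16 without S34F dox+ replicate 2 and 0.61 without replicate 1 of that group. Without doxycycline, the 1 untreated S34F library exceeded the WT dox- mean of SDF2L1 by 0.44, a value without a replicate or a test. The same gap was 0.09 for HERPUD1 and below 0 for XBP1 (-0.03) and DNAJB9 (-0.02). The lines are separate subclones, so S34F dox+ against WT dox+ does not separate line from construct. With each line set against its own untreated libraries, the SDF2L1 responses differed by -0.06 (S34F line minus WT line). HERPUD1 was 1.19-fold higher in S34F dox+ with an interval from 0.929 to 1.53 (adjusted p = 0.796). For HSPA5 the fold was 1.04, with an interval from 0.835 to 1.29, and for HSP90B1 it was 0.937, from 0.754 to 1.16. XBP1 was at 1.03-fold, from 0.791 to 1.35. The interval was widest for DNAJB9, whose fold of 0.917 had bounds of 0.621 and 1.35. Thus all 10 intervals lay between folds of 0.621 and 1.72, on the scale of FPKM + 1. The replicates did not overlap between the groups for 5 of the 10 genes (CALR, HERPUD1 and SDF2L1 higher, HSP90B1 and PDIA6 lower in S34F dox+), beside 35.8% of all genes tested. The direction of the median rested on single libraries: without S34F dox+ replicate 1 it was -0.05, and it was 0.17 when replicate 2 of that group was left out. HSPA5, for example, was at -0.10 and 0.22, and DNAJB9 at -0.34 and 0.09, in the same settings. With TPM in place of FPKM it was -0.07, the same as the median of all genes.

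**Figure D2:**
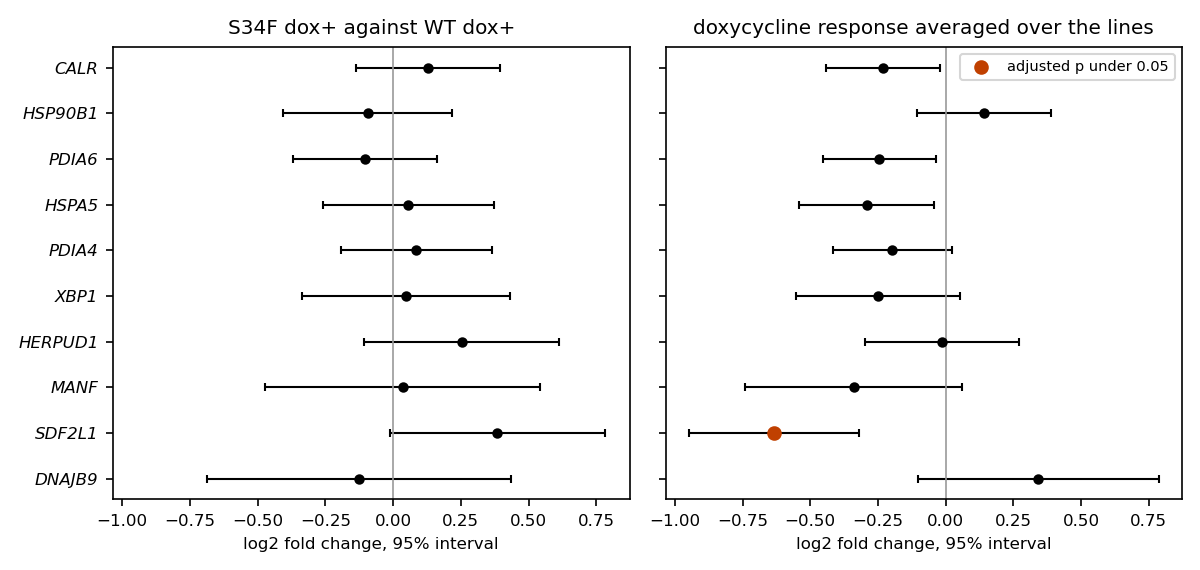
Log2 fold change (x axis) of the 10 genes with its 95% interval from limma, for S34F dox+ against WT dox+ (left) and for the doxycycline response averaged over both transduced lines (right). On the left every interval includes 0. On the right 8 of 10 estimates are below 0, and SDF2L1 (filled in colour, -0.63) is the gene with an adjusted p under 0.05.

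Doxycycline induces either U2AF1 construct. Averaged over the WT and the S34F line, 8 of the 10 genes had an estimate below 0 with doxycycline and 1 of them, SDF2L1, passed the test, with a median log2 fold change of -0.24, whereas the median of all 15179 genes was 0.08. In that fit, 41.3% of all genes tested had an estimate below 0. Both values for all genes include genes of low level. Among genes that averaged at least 5 FPKM, as all 10 did, the median was -0.24 for the 10 and -0.01 for all genes. The share below 0 was not taken at that minimum. With quantile normalization the 2 medians were closer, at -0.12 and -0.04. SDF2L1 fell by 0.63 on the log2 scale (SE 0.13), to 0.644-fold with a 95% interval from 0.518 to 0.801, and was the 1 gene of 10 called (adjusted p = 0.0488), where 3.88% of all genes tested were called. That call was at the edge of the threshold: it was lost in 12 of 16 alternatives, including each that left out a library, with adjusted p between 0.0308 and 0.160 over all settings. HSPA5 (log2 fold change -0.29, SE 0.11), PDIA6 (-0.24, SE 0.090) and CALR (-0.23, SE 0.090) passed 0.05 before but not after the adjustment, with adjusted p of 0.149, 0.150 and 0.168 from limma.

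The next estimates were near these, with larger errors. MANF was at -0.34 (SE 0.17), XBP1 at -0.25 (SE 0.13) and PDIA4 at -0.20 (SE 0.094). XBP1 was the 1 gene of 10 whose 4 dox+ libraries were all below its 3 dox- libraries, a pattern that 9.76% of all genes tested showed. HERPUD1 was at -0.01 (SE 0.12). The 2 genes above 0 were DNAJB9 (0.34, SE 0.19, adjusted p = 0.302) and HSP90B1 (0.14, SE 0.11, adjusted p = 0.439). Doxycycline and the induced protein cannot be told apart here, because no library of cells without a construct is labelled as treated.

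The estimates of the WT and the S34F line, which share no libraries, could be set side by side, although the S34F line has 1 untreated library and so no replicate check of its own. The log2 differences were -0.61 in the WT line and -0.66 in the S34F line for SDF2L1, -0.30 and -0.29 for HSPA5, -0.35 and -0.33 for MANF, and -0.25 and -0.21 for CALR. PDIA6 was at -0.16 and -0.33, and DNAJB9 at 0.39 and 0.29. HERPUD1 was the gene with opposite signs, -0.09 and 0.07. Within the WT line alone, in WT dox+ against WT dox-, the median was -0.21 and none of the 10 genes was called (0.0132% of all genes were). That median rested on the untreated libraries: it was -0.33 without WT dox- replicate 1 and -0.05 without WT dox- replicate 2, and with quantile normalization it was -0.09. SDF2L1 had the smallest p, 0.00815 before and 0.208 after adjustment by limma, and was the 1 gene of 10 under 0.05 before adjustment.

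The difference of the doxycycline responses, S34F line minus WT line, was tested as an interaction in the same fit. None of the 10 genes was called, against 0.0264% of all genes, none had an unadjusted p under 0.05, and the median was -0.02 (-0.15 without S34F dox+ replicate 1 and 0.06 without replicate 2). The estimates ran from -0.16 (PDIA6, SE 0.18) to 0.16 (HERPUD1, SE 0.24), and the 95% intervals were wide, from -0.99 to 0.79 in DNAJB9 and from -0.68 to 0.57 in SDF2L1 on the log2 scale. WT dox- against the parental line, which compares a transduced with an untransduced culture, gave no call among the 10 either (0.0988% of all genes), with a median of -0.03. DNAJB9 was at -0.63 there (SE 0.24, unadjusted p = 0.0331, adjusted p = 0.359 from limma), and SDF2L1 was at 0.31 (SE 0.17, adjusted p = 0.515). These comparisons share the WT dox- libraries with the doxycycline response.

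Genes that work beside these 10 were read from lists of the pathway. For the sensors, ERN1 was at 8.13 and 7.05 FPKM in the parental replicates, 11.5 and 3.67 in WT dox-, 6.68 in S34F dox-, 8.25 and 7.97 under WT dox+ and 5.03 and 5.66 under S34F dox+. EIF2AK3 was at 18.5 and 13.9, 12.7 and 20.8, 17.8, 16.5 and 15.1, and 22.6 and 10.6 FPKM in the same order, and its S34F dox+ replicates were the highest and the lowest of the 9. ATF6 was between 12.9 and 17.4 FPKM in all libraries. None of the 6 sensors and proteases was called in any of the 5 comparisons, and the log2 fold changes of ERN1, EIF2AK3 and ATF6 were -0.52 (SE 0.40), -0.02 (SE 0.35) and 0.11 (SE 0.16) in S34F dox+ against WT dox+. In the averaged doxycycline response the smallest p of the 6 was that of ATF6B, a relative of ATF6 (0.24, adjusted p = 0.168), followed by MBTPS1, the site-1 protease (0.05, adjusted p = 0.797).

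Among 23 other ER chaperones and folding enzymes, the averaged doxycycline response was below 0 in 18. Of all genes tested, those of low level included, 41.3% were below 0. The median of the 23 was -0.18, and 2 were called, both lower. DNAJB11 (ERdj3, another cochaperone of HSPA5) was at 179, 176 and 191 FPKM in the 3 dox- libraries of the transduced lines and at 143, 152, 131 and 127 in the dox+ libraries. It fell by 0.42 on the log2 scale (adjusted p = 0.0433). PPIB (cyclophilin B, a prolyl isomerase) was at 505, 521 and 514 against 405, 401, 396 and 325 FPKM and fell by 0.43 (adjusted p = 0.0468). In both genes the dox+ and dox- libraries did not overlap. Among 21 genes of the translocon and of transport to the Golgi, 18 were below 0 (median -0.14) and 1 was called: SSR3, a subunit of the translocon-associated protein complex, fell by 0.41 (adjusted p = 0.0395), from 287, 265 and 283 FPKM to 213, 209, 209 and 209.7. In the parental replicates, labelled as untreated, DNAJB11 was at 188 and 162 FPKM and PPIB at 497 and 463. SSR3 was at 212 and 232 there, so parental replicate 1 lay within its dox+ range. Each of these 3 calls held in 6 of 16 alternatives. None held when a library was left out, except that of PPIB without S34F dox+ replicate 1.

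Of 17 genes of ER-associated degradation, none was called, and 11 were below 0 with a median of -0.04. The smallest p value was that of SYVN1, the ubiquitin ligase HRD1 (-0.27, adjusted p = 0.246). Of 12 genes of the PERK and ATF4 branch, 7 were above 0 (median 0.07) and 1 was called. DDIT4, an inhibitor of mTORC1, rose by 0.84 (adjusted p = 0.0252), from 37.1, 49.9 and 27.2 FPKM to 69.7, 56.8, 62.7 and 60.6. Of 12 heat shock genes of the cytosol and mitochondria, which the heat shock response controls, 7 were below 0 (median -0.13) and 1 was called: HSPB1 (Hsp27) rose by 0.62 (adjusted p = 0.0231), from 134, 166 and 166 FPKM to 194, 187, 321 and 299.8, where the S34F dox+ libraries are the last and the highest. In the parental replicates, labelled as untreated, DDIT4 was at 85.7 and 98.1 FPKM, above every dox+ library. HSPB1 was at 186 and 176 FPKM there, near its WT dox+ libraries. The calls of DDIT4 and HSPB1 held in 9 of 16 alternatives each. Of those that left out a library, they held without WT dox- replicate 2. For U2AF1 the averaged response was 1.05 (adjusted p = 0.0108), a call that was lost without WT dox- replicate 1 and without either WT dox+ replicate.

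In the other 4 comparisons none of the genes on these lists was called. In S34F dox+ against WT dox+, the smallest p values within a list were those of HSPB1 (log2 fold change 0.70, adjusted p = 0.297), DERL1, a channel component of degradation (-0.44, adjusted p = 0.583), KDELR2, a retrieval receptor of the Golgi (-0.48, adjusted p = 0.747), DNAJB11 (-0.20, adjusted p = 0.772), ATF6B (0.20, adjusted p = 0.780) and VLDLR, a lipoprotein receptor of the ATF4 list (0.57, adjusted p = 0.782). After these came UBE2G2 (-0.29, adjusted p = 0.668), SEC31A (0.20, adjusted p = 0.774), PPIB (-0.17, adjusted p = 0.819), HSPE1 (-0.19, adjusted p = 0.852) and ATF3 (0.55, adjusted p = 0.869). List medians were between -0.04 and 0.12, beside 0.03 for all genes tested.

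The genes whose promoters hold an exact ERSE or ERSE-II, 44 in all, gave a set that expression did not choose. Of these, 36 were listed in the expression table and 30 passed the filter, among them CANX (calnexin), HYOU1 (GRP170), CRELD2, SERP1 and FICD, which are known genes of the same response. In S34F dox+ against WT dox+, 24 of the 30 were above 0, with a median of 0.08 beside 0.03 for all genes, and none was called. Of all genes tested, 8341 of 15179 were above 0 there. In the averaged doxycycline response, 16 of the 30 were below 0 (median -0.04), beside 41.3% of all genes tested. Of the 7 genes of this report in the set, 6 were below 0. Of the other 23, 10 were below 0 (median 0.06), with RUVBL2, an ATPase of chromatin remodelling, called lower (-0.53, adjusted p = 0.0229) and NAV2, a gene of neurite outgrowth, called higher (0.51, adjusted p = 0.0391). HYOU1 (-0.36, adjusted p = 0.0950), SERP1 (-0.35, adjusted p = 0.116) and CANX (-0.25, adjusted p = 0.115) did not pass the test. CRELD2 was at -0.18 in the WT line and -0.19 in the S34F line. FICD, which averaged only 1.68 FPKM, went the other way, at 0.32 and 0.38, and neither gene was called. RUVBL2 and NAV2 were named after their values were seen. The call of RUVBL2 held in 10 of 16 alternatives and that of NAV2 in 7. Of the settings that left out a library, both held without WT dox- replicate 2 and RUVBL2 also without S34F dox+ replicate 1, so both were lost without S34F dox+ replicate 2.

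**Figure D3:**
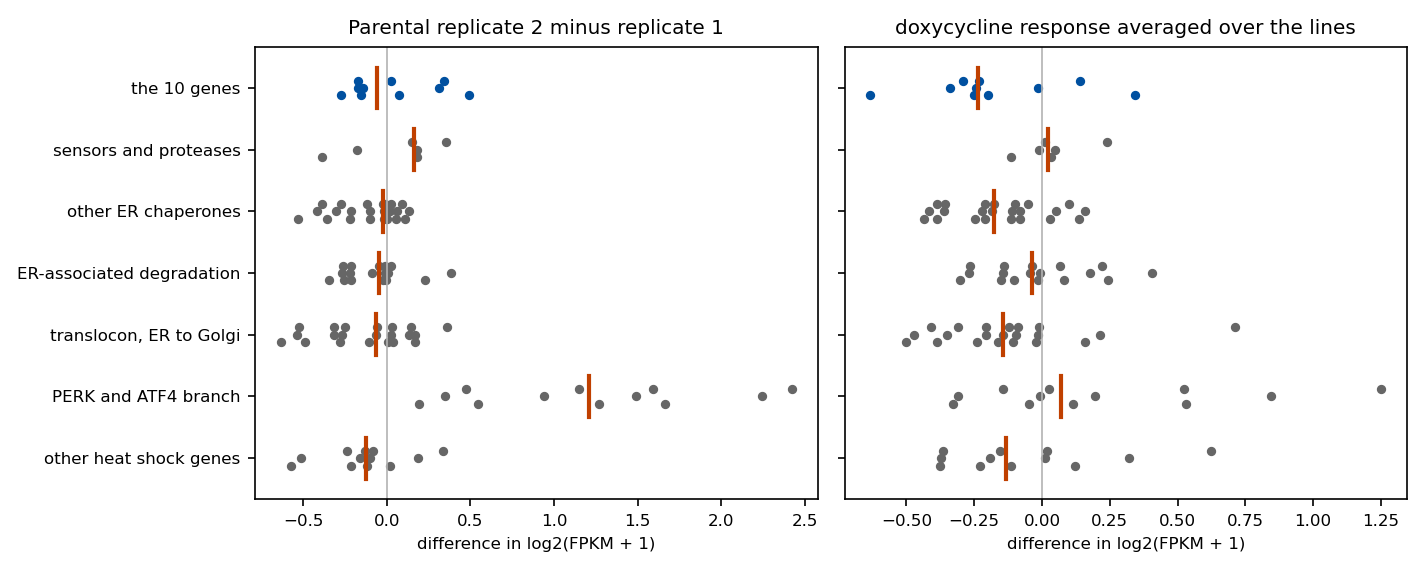
Difference in log2(FPKM + 1) (x axis) of each gene tested, by list (y axis), with a bar at the list's median, for parental replicate 2 minus replicate 1 (left) and for the averaged doxycycline response (right). On the left the PERK and ATF4 branch is the list shifted away from 0, with a median of 1.21, while the 10 genes have a median of -0.06. On the right the 10 genes have a median of -0.24.

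The 2 parental libraries differed in the genes listed for the PERK and ATF4 branch and little in the 10 genes. The activity of PERK was not measured, and why the listed genes differed was not tested. All 12 genes of that branch were higher in parental replicate 2, with a median log2 difference of 1.21, and 7 of 12 were higher by at least 1, compared with 2.37% of all genes tested. ATF4, the transcription factor of the branch, was at 110.3 FPKM in replicate 1 and 267 in replicate 2. ASNS, the asparagine synthetase, was at 7.96 and 47.1 FPKM, CHAC1, an enzyme of glutathione breakdown, at 0.37 and 5.50, and NUPR1, a stress-induced nuclear protein, at 8.50 and 29.2. In the other 7 libraries ATF4 was between 145 and 198 FPKM and ASNS between 14.6 and 20.5, so parental replicate 1 was below and replicate 2 above all of them. Of the 10 ER genes, 5 were higher in replicate 2. Their differences ran from -0.27 (DNAJB9) to 0.49 (XBP1), and HSPA5 was at -0.18. There is 1 such pair of libraries, so these are values without a test. In WT dox- against the parental line, the smallest p values of this branch were those of DDIT4 (-1.07, adjusted p = 0.103) and NUPR1 (-1.59, adjusted p = 0.283), and its median of -0.36 became -1.02 without parental replicate 1 and 0.25 without parental replicate 2. The median of the 10 ER genes in that comparison was -0.14 and 0.02 in the same settings.

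Across the 9 libraries the 10 genes varied together only in part. Of 45 pairs, 36 had a Pearson r of log2(FPKM + 1) above 0, and the median r was 0.34. The closest pairs were PDIA4 with CALR (r = 0.878), HSPA5 with MANF (r = 0.874) and PDIA6 with PDIA4 (r = 0.845). SDF2L1 varied opposite to DNAJB9 (r = -0.661) and to HSP90B1 (r = -0.646). DNAJB9 and HSP90B1 were also the genes with the lowest mean r with the other 9 (-0.0828 and 0.0411), and they are those that were above 0 in the doxycycline response. All points share their libraries and the scaling of each library, and the 9 libraries fall into 5 groups, so these correlations only describe. The mean of the 10 standardised profiles was highest in WT dox- replicate 2 (0.86) and lowest in WT dox+ replicate 2 (-0.65), and WT dox- replicate 1 was at -0.48. Among 9267 protein-coding genes that averaged 5 FPKM or more, the 5 most like this mean profile over the 9 libraries were the histone gene HIST2H2AC (r = 0.962), OAZ1, which inhibits ornithine decarboxylase (r = 0.957), the histone gene HIST2H2AA4 (r = 0.931), RDH11, a retinol dehydrogenase (r = 0.928), and TMED3, a protein of ER to Golgi transport (r = 0.927). HIST2H2AC was at 1252 and 1972 FPKM in the WT dox- replicates. Near-identical histone genes may share reads, so the values of both histone genes are uncertain.

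Splicing was read from the comparison of S34F with wild-type cells that MISO gave, without values per replicate. The files do not say whether the replicates of a condition were pooled, so each PSI and read count may stand for 1 library or 2. For each event it lists PSI, the share of an isoform, in each condition, a Bayes factor for a difference, and the reads behind it. An event was counted as changed with a PSI difference of at least 0.10, a Bayes factor of at least 5 and at least 10 reads in both conditions together. The 10 genes had 46 events, all with enough reads, and 0 of them changed, where 1034 of 87763 events (1.18%) changed in all. They comprised 17 skipped exons (1.36% of all such events changed), 16 alternative 5′ splice sites (1.16%), 8 NAGNAG events, which are 3′ splice sites 3 bases apart (0.270%), 3 alternative 3′ splice sites (1.12%) and 2 retained introns (2.55%). The median Bayes factor of the 46 events was 0.060, against 0.53 over all 92662 events. The median difference in PSI without its sign was 0.010 against 0.050. The 92662 events include those with too few reads, and no set matched for reads was used. The sets therefore differ in reads, and these medians do not show that splicing of the 10 genes was steadier.

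The XBP1 retained intron is the one IRE1 removes. It spans 26 bases at chr22:29192110-29192135 of GRCh37, on the minus strand. PSI was 0.080 for S34F and 0.13 for wild-type cells, a difference of -0.050 with a Bayes factor of 0.23, from 1383 and 1896 reads. Here PSI was read as the share of mRNA without the intron, the isoform named first. The isoform named second joins neighbouring bases in all 5776 retained-intron events, so it keeps the intron. This reading also rests on the 830 events with at least 1000 reads in each condition. Their median PSI was 0.93 in wild-type and 0.92 in S34F cells. On that reading, most XBP1 mRNA still held the intron in both conditions, and the difference did not count as a change. The other XBP1 event, at another place in the gene, had nearly the same counts, 1382 (S34F) and 1901 (wild-type) reads. How many reads bear on this intron is therefore unknown, and the share that held it is uncertain. The files do not state which isoform PSI refers to.

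**Figure D4:**
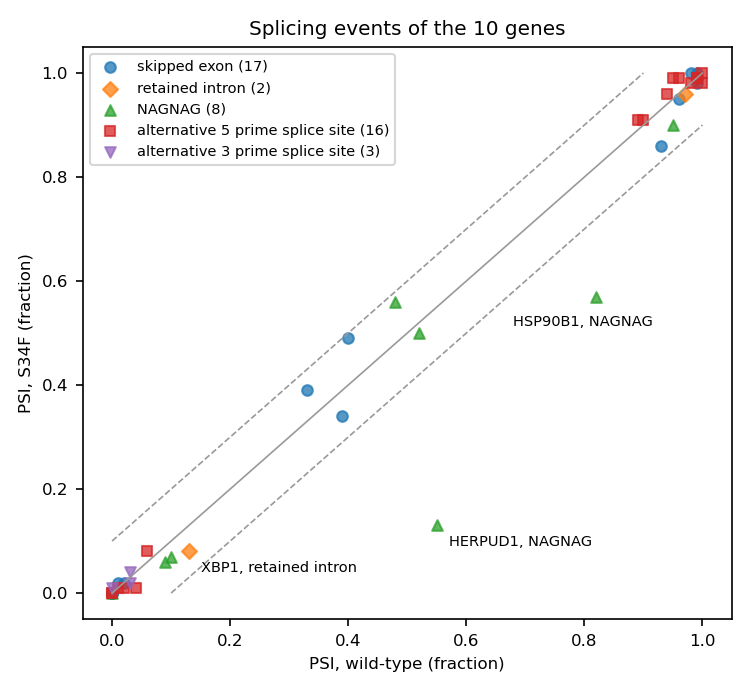
PSI in S34F cells (y axis) against PSI in wild-type cells (x axis) for the 46 splicing events of the 10 genes, with a symbol for each type of event, a line of equality and dashed lines 0.10 above and below it. The 2 events outside the dashed lines, both NAGNAG, are those of HERPUD1 (0.13 against 0.55) and HSP90B1 (0.57 against 0.82), with Bayes factors of 1.92 and 1.03.

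The largest differences in PSI did not reach the Bayes factor that a change required. A NAGNAG event of HERPUD1, whose exons span chr16:56976149-56977180, had a PSI of 0.13 (S34F) and 0.55 (wild-type cells), with 279 and 366 reads and a Bayes factor of 1.92. A NAGNAG event of HSP90B1, whose exons span chr12:104325390-104332158, had a PSI of 0.57 and 0.82, with 4150 and 6600 reads and a Bayes factor of 1.03. HERPUD1 had 11 events, the most of the 10 genes, and its other events differed by at most 0.090. CALR, the most abundant transcript, had 5 events with 18747 to 18825 reads each, where PSI differed by at most 0.030. These counts were nearly equal for every event of the gene, so how many reads tell its isoforms apart is unknown. The same holds for PDIA4, whose events had 14015 to 14026 reads each. PDIA6 had 8 events that differed by at most 0.010. The 1 event of DNAJB9 had only 6 and 9 reads, with a PSI of 0.50 and 0.52. Of the 10 events listed under HSP90B1, 2 lie on the opposite strand and are also listed under C12orf73.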

How the data were processed

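RNA was extracted with the RNeasy kit and sequenced from total RNA in paired-end reads. Per the labels, the authors aligned reads with STAR 2.3.0 to GRCh37 (hg19), and RSEM 1.2.29 gave the deposited FPKM and TPM values. No counts per gene were used, the read total of each library is unknown, and no counting interval could be given. The authors ran MISO, and the deposited PSI fraction (for alternative 3′ and 5′ splice sites with several isoforms, several values joined), the deposited score columns (PSI difference and Bayes factor) and the deposited read count per condition were used as given.

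The study tested counts with DESeq2. Here, limma 3.58.1 (limma-trend, R 4.3.3) was run on log2(FPKM + 1) for 15179 genes that averaged 1 FPKM or more over the 9 libraries, in 1 fit of 5 groups with 4 residual degrees of freedom before moderation, two-sided, with Benjamini-Hochberg adjustment over all genes. Fold changes on this scale understate those of low genes. Summaries used Python 3.11.15 with pandas 2.3.3. The fit was also run on simulated data. The changes put in were larger than those estimated for the 10 genes, so that run says nothing about changes of their size. The 10 genes, the lists and the tests were chosen with earlier results of these data known. By rule, up to 3 called genes of a list in each direction were named, or the 2 of smallest p where none was called, though not for every comparison, along with the sensors and the 5 genes most like the mean profile. Alternatives covered the pseudocount, the minimum, scaling, TPM, protein-coding genes only, a replicate block, the libraries fitted, leaving out each replicate, and the event thresholds. 1 gene that the rule names is not reported here. iCLIP data were not used here.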

Additional observations from a re-analysis of the deposited data

How the results depend on the processing

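Among the 10 genes, no call was made in any alternative for S34F dox+ against WT dox+, WT dox+ against WT dox-, the difference of the responses or WT dox- against the parental line, and 0 of their splicing events changed at a Bayes factor of 20, a PSI difference of 0.20 or 10 reads in each condition. The 1 call in the averaged doxycycline response, SDF2L1, became 0 with a pseudocount of 5, no minimum FPKM, quantile normalization, TPM, and the compared groups alone, and was between 0 and 0 when each replicate was left out. Leaving out the S34F dox- library was not possible, as the S34F line then has no response. The median log2 fold change of the 10 genes moved by more than the spread between replicates (0.097) as follows. For S34F dox+ against WT dox+ it was -0.07 with TPM and -0.05 to 0.17 with a replicate left out. For WT dox+ against WT dox- it was -0.09 with quantile normalization and -0.33 to -0.05 with a replicate left out. For the averaged response it was -0.12 with quantile normalization. For the difference of the responses it was -0.17 with TPM and -0.15 to 0.08 with a replicate left out, and for WT dox- against the parental line 0.07 and -0.17 to 0.10. In S34F dox+ against WT dox+, TPM turned the direction of HSPA5 (-0.06), XBP1 (-0.07), PDIA4 (-0.03) and MANF (-0.08). With a replicate left out, SDF2L1 ranged from 0.16 to 0.61, DNAJB9 from -0.39 to 0.14, MANF from -0.15 to 0.23, HSPA5 from -0.10 to 0.22, PDIA4 from -0.00 to 0.17 and XBP1 from -0.01 to 0.11. HERPUD1 in the averaged response was 0.05 with quantile normalization and -0.09 to 0.06 with a replicate left out. The cause was not tested. The median of all genes tested itself shifted from 0.03 to -0.07 with TPM in S34F dox+ against WT dox+, from 0.03 to -0.11 with TPM in the difference of the responses and from 0.08 to -0.04 with quantile normalization in the averaged response. Of all genes, 424 were called higher and 165 lower in the averaged response, compared with 363 and 279 with median-ratio scaling, 294 and 228 with TPM and between 10 and 347 in all with a replicate left out.

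Replicate numbers did not pair the libraries: the difference between replicates 1 and 2 correlated between groups by -0.0756 to 0.0374 over the genes tested. With the replicate block the count of calls among the 10 in the averaged response was 0, HERPUD1 was at 0.02, and 197 genes were higher and 45 lower in all.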
